A study of Mus musculus with 19 samples.

Results

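The transcripts of 10 antioxidant enzyme genes were followed in single mouse blastocysts: the 6 peroxiredoxins Prdx1 to Prdx6, the glutathione peroxidase Gpx4, the superoxide dismutases Sod1 and Sod2, and thioredoxin, Txn1. The genes were chosen by symbol, with earlier results of these data known, and all 10 were among the 14173 genes measured. The study compared 9 Padi6-mutant blastocysts, which came from oocytes carrying the P620A change in PADI6, with 10 Control blastocysts, each sequenced as 1 library of polyadenylated RNA. PADI6 is a protein of the oocyte cytoplasm, so the change acts through the mother, and the labels give no strain, age or litter for either group. Embryos were taken as the replicates; where litter mates are among them, p-values understate the error.

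Superoxide dismutases turn superoxide, a by-product of respiration, into hydrogen peroxide. Peroxiredoxins and glutathione peroxidases then reduce peroxides. Most peroxiredoxins are recharged by thioredoxin, which draws on thioredoxin reductase and NADPH, whereas Gpx4 and Prdx6 draw on glutathione. Preimplantation embryos depend on these enzymes in culture, where oxygen is often higher than in the oviduct, and the transcription factor NRF2 drives several of the genes.

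Values are log2(scaled count + 1), with each library scaled by the authors to 1 common upper quartile. Blastocyst markers were present in both groups, with Cdx2 of the trophectoderm at 13.21 to 14.36 in Padi6-mutant and 13.41 to 14.97 in Control embryos. The summed level of the 6 trophectoderm markers measured, of 7, had a median of 18.06 in Padi6-mutant (range 16.65 to 18.85) and 18.11 in Control embryos (range 17.69 to 18.6). Medians of Krt18 (16.43 and 16.24), Gata3 (15.06 and 14.82) and Eomes (11.73 and 11.08) were higher in Padi6-mutant embryos. Those of Cdx2 (14.02 and 14.16), Krt8 (16.83 and 17.17) and Tfap2c (12.29 and 12.52) were lower. The summed level of the 5 inner cell mass markers had a median of 14.4 in Padi6-mutant (range 13.43 to 15.01) and 15.14 in Control embryos (range 14.47 to 15.75). That of the 5 primitive endoderm markers had a median of 13.47 (range 13.07 to 13.87) and 14.37 (range 13.17 to 15.33). Of the inner cell mass markers, Pou5f1 (medians 13.13 and 14.54), Fgf4 (7.48 and 8.74) and Klf2 (9.04 and 10.13) were lower in Padi6-mutant embryos. Nanog (13.37 and 13.47) and Sox2 (9.29 and 9.25) were near equal. The part of these marker differences in the results was not tested. With 1 library per whole embryo, fewer cells of a type and less RNA per cell cannot be told apart. Of 8 cumulus and granulosa markers only Star was listed (summed level 3.70 to 8.43 in Padi6-mutant and 5.39 to 8.58 in Control), of 6 red blood cell markers only Alas2 (4.58 to 7.71 and 4.86 to 8.74) and of 4 white blood cell markers 0. Padi6 itself stood at 6.49 ± 2.16 (SD, n = 9) and 6.53 ± 1.503 (SD, n = 10), which checks no label, since the change is in the protein sequence. Genes at 0 numbered 113 to 596 in Padi6-mutant and 30 to 247 in Control libraries, and 4 Padi6-mutant libraries (6, 8, 9 and 10) had over 400.

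Of the 10 genes, 5 rose in Padi6-mutant embryos (Txn1, Prdx5, Sod1, Gpx4 and Prdx4) and 0 fell, at a limma adjusted p under 0.05 over all genes. Over all 14173 genes 14.6% rose and 12.0% fell by the same rule, so the 5 of 10 stand beside a background of 14.6%. Since the 10 were chosen with earlier results known, this is a description and not a test. With every library scaled to the same sum in place of the same upper quartile, 4 of the 10 genes rose beside 13.1% of all genes (1856), 16.3% of all genes fell (2307) and 0 of the 10 did, where 2068 and 1697 genes rose and fell on the deposited values. With quantile normalization 4 of the 10 rose beside 14.2% of all genes, and 0 fell beside 13.7%. With a covariate for how many genes each library detected, 4 rose beside 9.23%, and 0 fell beside 3.52%. Without the 4 libraries with over 400 genes at 0, 5 rose beside 11.9%, and 0 fell beside 6.64%. With library quality weights 6 rose beside 18.8%, and 1 fell beside 19%. With a block for the number in the sample name 4 rose beside 10.8%, and 0 fell beside 7.06%. The count moved most with each library's trend on transcript length and GC content removed: 3 rose beside 10.6%, and 1 fell beside 10.2%. The median log2 fold change of the 10 genes was 0.64 and that of all genes -0.10 (-0.23 with the same sum). With the length and GC trend removed these medians were 0.23 and -0.07. In 0 of the 10 genes did the groups part fully, where every Padi6-mutant embryo lay above every Control embryo in 2.67% of all genes and below in 0.289%.

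**Figure D1:**
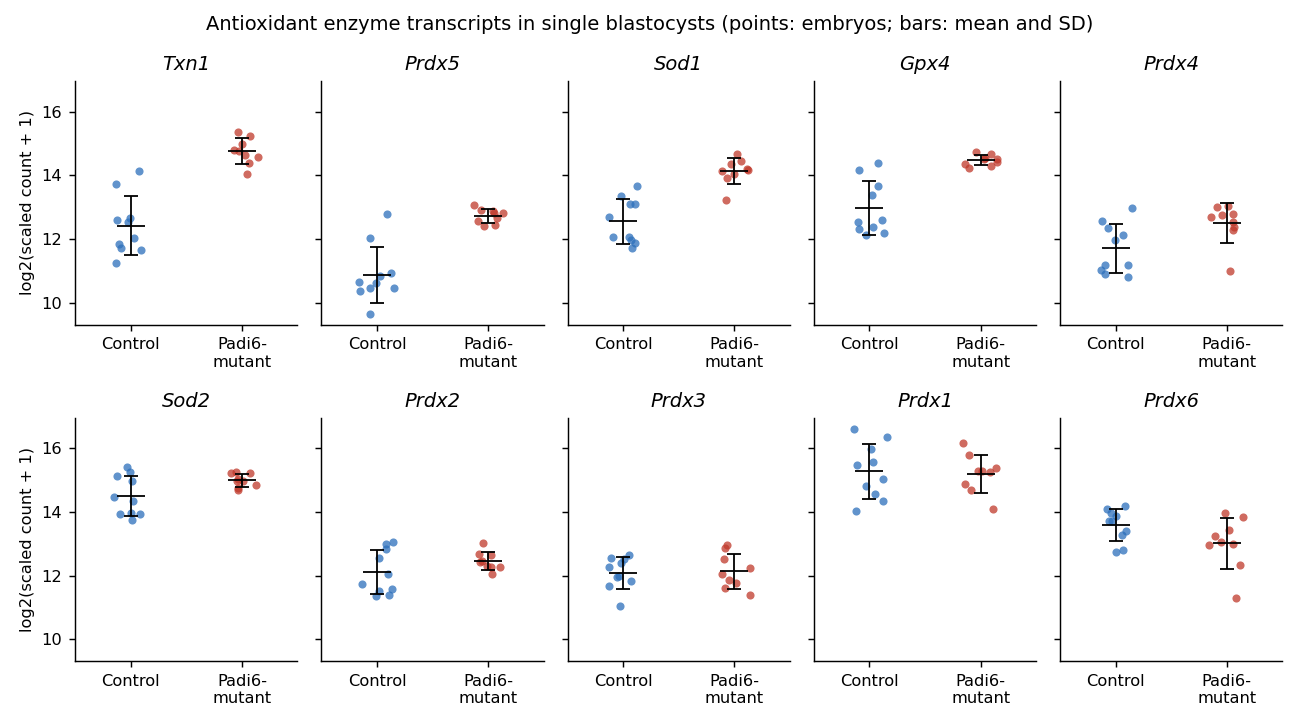
Each panel plots 1 gene; the vertical axis is log2(scaled count + 1), each point is 1 embryo (10 Control in blue, 9 Padi6-mutant in red), and the bars give the mean and SD. For Txn1 and Sod1, 8 of 9 Padi6-mutant points lie above the highest Control point, for Gpx4 6 and for Prdx5 5, while for Prdx1 and Prdx3 the groups lie over each other.

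Txn1, the small thiol protein that recharges most peroxiredoxins, had the largest change of the 10 genes. Its level ran from 14.04 over a median of 14.77 to 15.35 in Padi6-mutant embryos, and from 11.26 over 12.29 to 14.14 in Control embryos. All but 1 of the Padi6-mutant embryos, the exception being Padi6-mutant 9, lay above the highest Control embryo, Control 9. The log2 fold change was 2.33 (SE 0.30, limma adjusted p = 5.47e-06), a 5.02-fold higher level, with 9 of 9 Padi6-mutant embryos above the Control median.

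The cytosolic peroxiredoxins Prdx1 and Prdx2 use a pair of cysteines and are the main thioredoxin-dependent peroxide scavengers of the cytosol. Prdx1 ran from 14.1 over 15.29 to 16.15 in Padi6-mutant and from 14.03 over 15.26 to 16.61 in Control embryos. The groups lay over each other, and the log2 fold change of -0.08 (SE 0.31, limma adjusted p = 0.882) turned to 0.040 without the 4 libraries with over 400 genes at 0. Prdx2 ran from 12.04 over 12.42 to 13.04 against 11.38 over 11.90 to 13.07. Although 9 of 9 Padi6-mutant embryos lay above the Control median, Control embryos reached as high as the mutants, and the value of 0.35 (SE 0.23, limma adjusted p = 0.283) did not pass.

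Promoter sequence is shown for Prdx1 and Sod1, because theirs were the windows that held the antioxidant response element, the short motif that NRF2 binds. The motif TGACNNNGC was searched on both strands from 250 bases before to 50 bases after each RefSeq start site (build GRCm38.p6), for the 9 of 10 genes that had a window. In both genes it lies on the strand opposite to the gene, so it reads GCNNNGTCA in the lines below, which give the strand of the gene, 5′ to 3′, with the motif in capitals.
Prdx1: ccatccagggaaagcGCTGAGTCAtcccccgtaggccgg
Sod1: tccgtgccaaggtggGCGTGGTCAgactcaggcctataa
The Prdx1 stretch is chr4:116685451-116685489 (plus strand, 124 bases between motif and start), and its motif overlaps TGANTCA, the site of AP-1 factors. The Sod1 stretch is chr16:90220691-90220729 (plus strand, 47 bases between motif and start). Of all 27025 genes with a window, 14.0% held the motif in 1 or more windows, as did 16.9% of the 9575 measured genes that had one, so a match is a description and not a sign of binding. Of this pair, Sod1 was among the 5 genes that rose and Prdx1 was not.

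Prdx3 and Prdx5 serve the mitochondria, Prdx3 in the matrix and Prdx5 there and in peroxisomes and the cytosol. Prdx5 ran from 12.4 over 12.81 to 13.07 in Padi6-mutant embryos and from 9.66 over 10.63 to 12.78 in Control embryos. All Control embryos other than Control 9 lay below the lowest Padi6-mutant embryo. Its log2 fold change was 1.85 (SE 0.28, limma adjusted p = 3.88e-05), or 3.61-fold. Prdx3 ran from 11.4 over 12.07 to 12.97 and from 11.04 over 12.14 to 12.65, with no order between the groups. Its log2 fold change of 0.05 (SE 0.23, limma adjusted p = 0.888) changed sign under other scalings (-0.075 where library sums were made equal).

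Prdx4, encoded on the X chromosome, works in the endoplasmic reticulum, where it couples peroxide to the folding of secreted proteins. It ran from 11.0 over 12.7 to 13.04 in Padi6-mutant and from 10.8 over 11.58 to 12.97 in Control embryos. Of the 9 Padi6-mutant embryos 8 lay above the Control median, and Padi6-mutant 8 lay near the bottom of the Control range. Its change of 0.79 (SE 0.29) passed by little (limma adjusted p = 0.0495). The call ended without any 1 of Control 1, 2, 3, 4, 7 or 8 or of Padi6-mutant 2, 3, 4, 5, 6, 7, 9 or 10 (highest adjusted p = 0.0918), under quantile normalization (adjusted p = 0.0562), with the same sum in each library (0.66, adjusted p = 0.0762), without the trend in eBayes (adjusted p = 0.0744) and with the detected-gene covariate (adjusted p = 0.104).

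Prdx6, the peroxiredoxin with a single catalytic cysteine, reduces lipid peroxides with glutathione. It was the only one of the 10 genes with fewer than 4 Padi6-mutant embryos above the Control median (2 of 9). It ran from 11.3 over 13.06 to 13.97 in Padi6-mutant and from 12.76 over 13.73 to 14.18 in Control embryos. The lowest value belonged to Padi6-mutant 9. The log2 fold change of -0.57 (SE 0.28, limma adjusted p = 0.135) did not pass, and it did with library quality weights (-0.72, adjusted p = 0.0260).

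Gpx4, the selenoprotein that reduces lipid peroxides within membranes and holds off ferroptosis, ran from 14.24 over 14.51 to 14.72 in Padi6-mutant embryos. In Control embryos it ran from 12.13 over 12.56 to 14.39. The Padi6-mutant embryos lay within less than 1 log2 unit of each other (SD 0.16) and 6 of 9 lay above the highest Control embryo, Control 5. The log2 fold change was 1.49 (SE 0.26, limma adjusted p = 0.000220), or 2.82-fold.

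Sod1, the copper-zinc dismutase of the cytosol, ran from 13.21 over 14.17 to 14.66 in Padi6-mutant and from 11.73 over 12.38 to 13.66 in Control embryos. All Padi6-mutant embryos other than Padi6-mutant 9 lay above the highest Control embryo. Sod1 changed by 1.57 on the log2 scale (SE 0.25, limma adjusted p = 6.58e-05), or 2.96-fold. The call ended with the length and GC trend removed (0.40, adjusted p = 0.0785, and 0.36, adjusted p = 0.119 with the longest transcripts). Sod2, the manganese dismutase of the mitochondrial matrix, ran from 14.69 over 14.98 to 15.24 against 13.74 over 14.4 to 15.41. All 9 Padi6-mutant embryos lay above the Control median, but 0 above the highest Control embryo, and the value of 0.48 (SE 0.21, limma adjusted p = 0.0964) did not pass. It passed without Control 9 (adjusted p = 0.0316) and with library quality weights (0.59, adjusted p = 0.0153).

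Control embryos differed among themselves more than Padi6-mutant embryos did in 8 of the 10 genes, where the same held for 55.1% of all genes. For Prdx5 the SD was 0.89 in Control and 0.22 in Padi6-mutant embryos, for Gpx4 0.85 and 0.16, and for Sod2 0.63 and 0.21. Prdx3 (0.49 and 0.55) and Prdx6 (0.504 and 0.80) were the exceptions. The Control spread ran through the same embryos in gene after gene. Control 9 was the highest Control embryo for 7 of the 10 genes, and Control 1 (6 genes) or Control 8 (3 genes) was the lowest for 9. Control 5 and 6 lay above the Control mean in 10 of 10 genes, Control 7 and 9 in 9, and Control 1, 4 and 8 in 0. After removal of each library's trend on transcript length and GC content (described next), 5 of the 10 genes had the larger SD in Control, against 45.5% of all genes with a length. Prdx5 (0.94 and 0.37) and Gpx4 (0.63 and 0.26) were still among the 5.

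**Figure D2:**
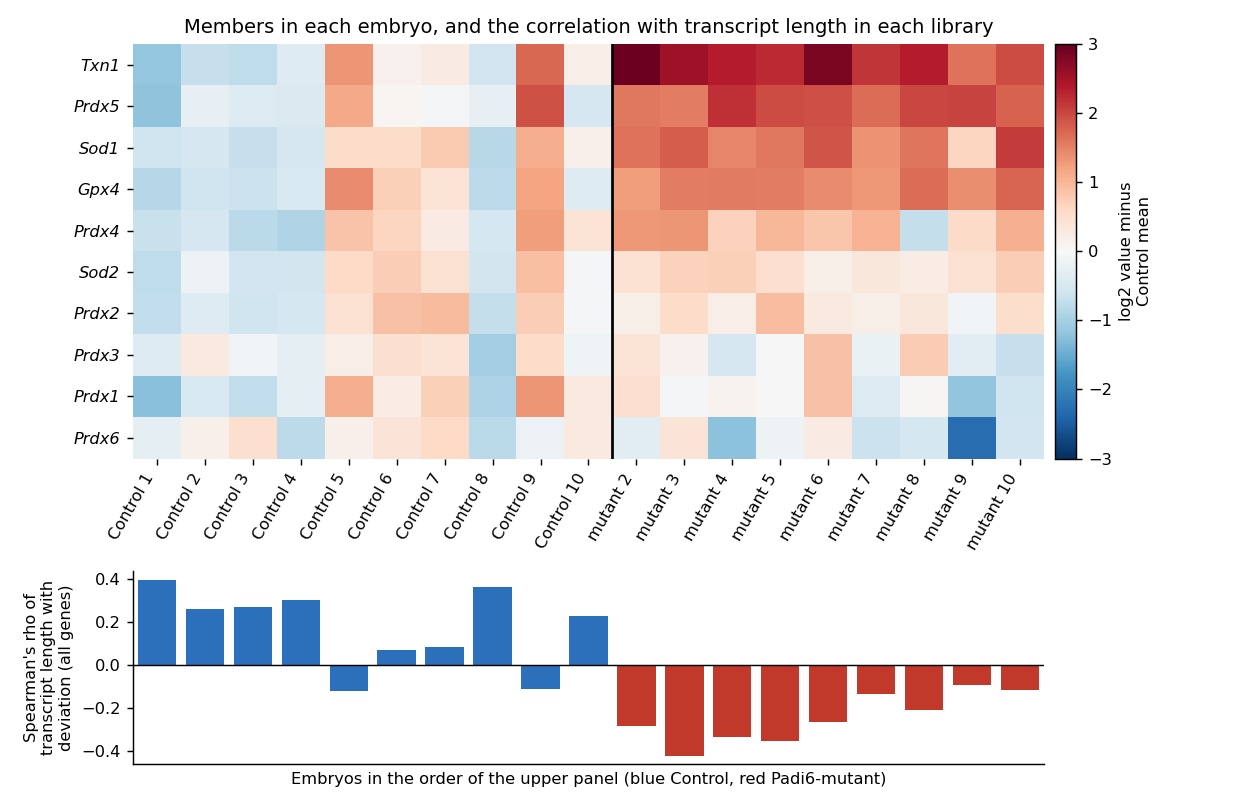
The upper panel colours each gene's log2 value in each embryo relative to its Control mean (red higher, blue lower, scale from -3 to 3); the lower panel gives, for each library, Spearman's rho, across all genes with a length, between length and how far the library lies from each gene's mean. Control 5 and 9, the Control libraries with rho below 0, are red in nearly all rows, and Control 1 and 8, with the highest rho, are blue in all rows.

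Most of the 10 transcripts are short, and short transcripts as a whole were higher in Padi6-mutant libraries. In each library, Spearman's rho between length and the distance from each gene's mean was computed over genes, and genes are no independent replicates. It ran from -0.42 over -0.27 to -0.09 in Padi6-mutant and from -0.12 over 0.24 to 0.40 in Control libraries, where a negative rho means that short transcripts were relatively high. Sod1 (641 nt) lies in the shortest of 10 length classes, where the median log2 fold change was 1.28 and 51.2% of genes rose, so its 1.57 was above 57.3% of the class. Prdx1 (877 nt), Gpx4 (959 nt), Prdx4 (990 nt), Txn1 (1051 nt) and Prdx2 (1175 nt) lie in the class of 768 to 1243 nt, with a median of 0.65 and 37.5% risen. Txn1 was above 96.4% of that class and Gpx4 above 84.1%, whereas Prdx4 was near its middle (57.1%) and Prdx2 (36.3%) and Prdx1 (21.6%) were below it. In the class of 1243 to 1653 nt, with a median of 0.07 and 13.5% risen, Prdx5 (1262 nt) was above 96.6% and Prdx3 (1478 nt) in the middle (49.2%). Prdx6 (2387 nt) was above 29.6% of its class and Sod2 (5861 nt) above 92.4% of the longest class, where the median was -0.31.

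**Figure D3:**
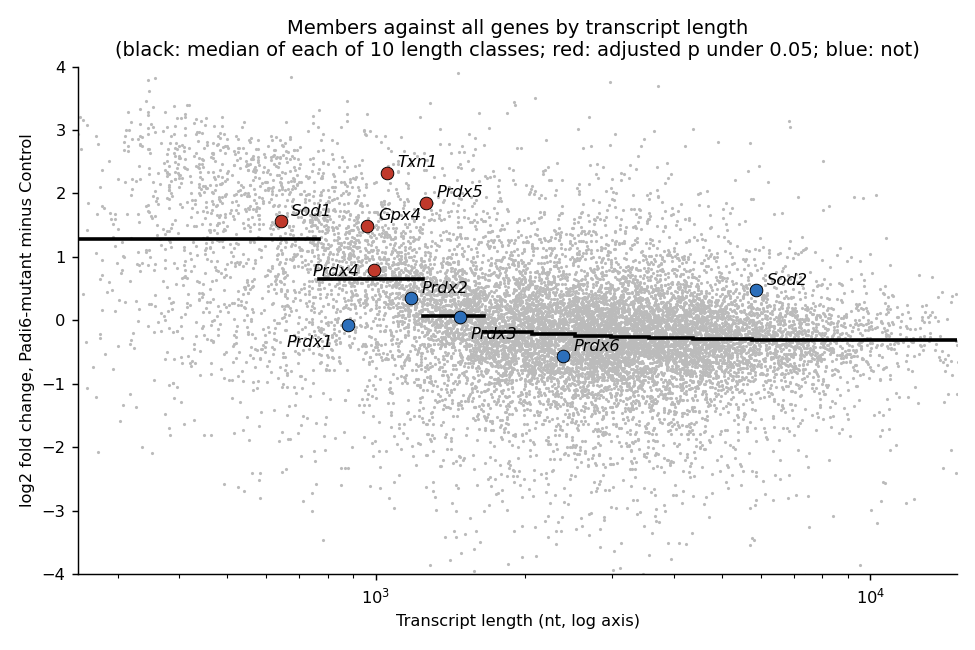
The horizontal axis is transcript length in nt (log axis, 250 to 15000 shown) and the vertical axis is the log2 fold change of Padi6-mutant minus Control (-4 to 4 shown); grey points are all genes with a length, black lines the median of each length class, and large points the 10 genes (red past the threshold, blue not). Txn1 and Prdx5 stand well above the black lines, Sod1 and Prdx4 lie close to them, and Prdx1 lies below.

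With each library's trend on transcript length and GC content removed, 3 of the 10 genes were still higher and 1 was lower, against 10.6% and 10.2% of 13357 genes. With the longest transcripts 3 were higher and 0 lower, against 10.6% and 10.3%. Prdx5 stood at 1.75 (SE 0.30, limma adjusted p = 0.000298), Txn1 at 1.57 (SE 0.18, adjusted p = 2.73e-06) and Gpx4 at 0.98 (SE 0.21, adjusted p = 0.00197). The calls of Sod1 (0.40, adjusted p = 0.0785) and Prdx4 (0.05, adjusted p = 0.892) ended. Prdx1 was then lower, at -1.11 (SE 0.18, adjusted p = 0.000175). That call depends on the transcript: the annotation lists coding transcripts of Prdx1 of 877 and 2294 nt, and with the longest coding transcript of each gene Prdx1 stood at -0.18 (adjusted p = 0.715). Prdx5 (1.62), Txn1 (1.43) and Gpx4 (0.95) passed with either choice, and Sod2 (0.54 and 0.52), Prdx6 (-0.49 and -0.53), Prdx3 (-0.24 and -0.36) and Prdx2 (-0.11 and 0.21) passed with neither. For Sod2 both choices give 5861 nt, and removing the trend widened its SD from 0.63 to 0.87 in Control embryos. In Padi6-mutant embryos its SD widened from 0.21 to 0.42. Whether that length fits the Sod2 transcript of these embryos was not tested, and its class rank and trend-removed values rest on it.

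**Figure D4:**
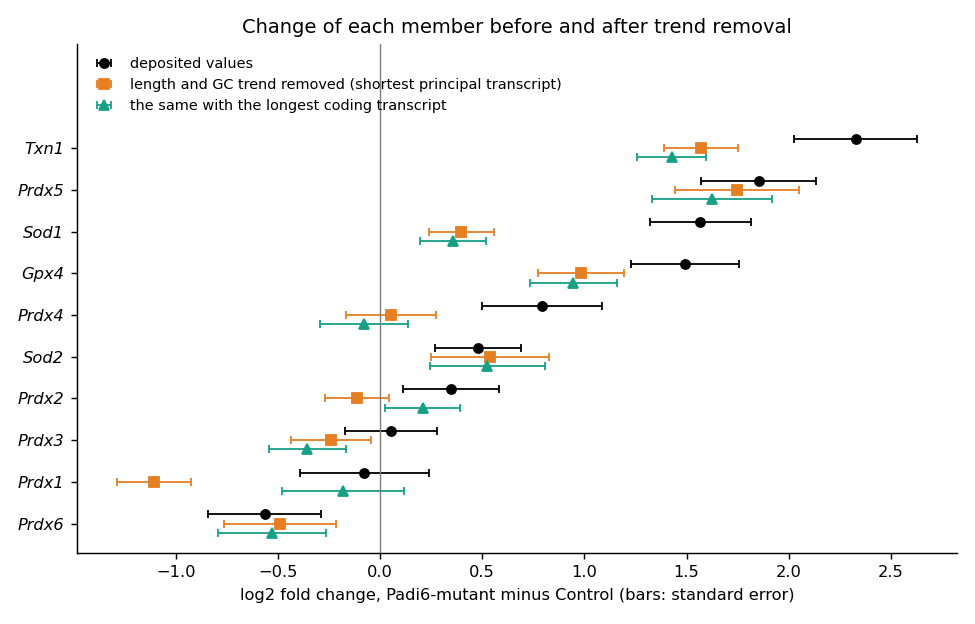
For each gene the horizontal axis gives the log2 fold change of Padi6-mutant minus Control with its standard error: on the deposited values (black), with the length and GC trend removed using the shortest principal transcript (orange), and using the longest coding transcript (green). Prdx5, Txn1 and Gpx4 stay well above 0 under the 3 settings, Sod1 and Prdx4 move towards 0, and Prdx1 moves from -0.08 to -1.11 or to -0.18.

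The libraries whose rho lay between -0.14 and -0.09, chosen after their values were seen, let the levels be read side by side at a like length correlation, with no test. They are Control 5 and 9 (130 and 247 genes at 0) and Padi6-mutant 7, 9 and 10 (143, 411 and 551). Padi6-mutant 9 and 10 are thus among the 4 libraries with over 400 genes at 0, and the part of this was not tested. Prdx1 stood at 16.36 and 16.61 in the Control libraries and at 14.87, 14.1 and 14.68 in the Padi6-mutant libraries. Gpx4 stood at 14.39 and 14.16 and at 14.28, 14.37 and 14.72. Txn1 stood at 13.74 and 14.14 and at 14.56, 14.04 and 14.38. For Prdx1 these Padi6-mutant libraries were lower than both Control libraries, and for Gpx4 and Txn1 the values ran into each other. Prdx3 (12.29 and 12.65, against 11.88, 11.77 and 11.4) and Prdx6 (13.73 and 13.41, against 12.95, 11.3 and 13.0) were likewise lower in all 3 Padi6-mutant libraries. The values of Sod1 (13.1 and 13.66, against 13.9, 13.21 and 14.66), Prdx5 (12.02 and 12.78, against 12.56, 12.9 and 12.65), Prdx4 (12.56 and 12.97, against 12.75, 12.28 and 12.78), Prdx2 (12.56 and 12.85, against 12.28, 12.04 and 12.64) and Sod2 (15.12 and 15.41, against 14.85, 14.98 and 15.24) ran into each other too.

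In the difference between 2 genes of 1 embryo, a factor that scales the whole library cancels, whereas quantile normalization, which reshapes each library, does not. In all, 6 such pairs were compared by exact permutation (two-sided, 92378 splits of the embryos) with p-values adjusted over the 6. The pairs were picked by compartment or chemistry from genes chosen with earlier results known, and the adjustment does not cover that choice. Sod2 minus Sod1, the mitochondrial against the cytosolic dismutase, averaged 0.87 ± 0.43 (SD, n = 9) where the oocyte was mutant and 1.96 ± 0.22 (SD, n = 10) in Controls. The difference was -1.09 (exact permutation p = 4.33e-05, adjusted 0.000260), with 9 of 9 mutant embryos under the Control median. The ranges overlapped, from 0.24 to 1.78 in Padi6-mutant and from 1.63 to 2.29 in Control embryos. By the annotated lengths (5861 and 641 nt), the Sod2 and Sod1 transcripts differ most among the pairs, and the Sod2 length was not checked here. With the length and GC trend removed the difference was 0.14 (exact permutation adjusted p = 0.633). The transcripts of Gpx4 and Txn1 are of like length but differ in GC content (58.8% and 47.2%). Gpx4 minus Txn1 was -0.28 ± 0.48 in Padi6-mutant and 0.55 ± 0.36 in Control embryos. This difference of -0.83 (exact permutation p = 0.000563, adjusted 0.00169; below the Control median in 9 of 9) was -0.59 with the trend removed (exact permutation adjusted p = 0.00294).

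Among the peroxiredoxins, Prdx4 minus Prdx1 was -2.70 ± 0.83 in Padi6-mutant and -3.57 ± 0.39 in Control embryos, a difference of 0.87 (exact permutation p = 0.0101, adjusted 0.0202; above the Control median in 8 of 9). It was 1.16 with the trend removed (exact permutation adjusted p = 0.00195) and 0.10 with the longest transcripts (exact permutation adjusted p = 0.775). Prdx2 minus Prdx1 differed by 0.42 (exact permutation p = 0.0978, adjusted 0.147), Prdx6 minus Prdx1 by -0.49 (exact permutation p = 0.156, adjusted 0.187) and Prdx3 minus Prdx1 by 0.13 (exact permutation p = 0.606, adjusted 0.606), and none of these 3 passed. With the trend removed the same 3 were 0.99 (exact permutation adjusted p = 0.000325), 0.62 (adjusted p = 0.0136) and 0.87 (adjusted p = 0.000844), the second with the opposite sign to the deposited values. With the longest transcripts they were 0.39, -0.35 and -0.18 and did not pass (exact permutation adjusted p = 0.326, 0.481 and 0.673).

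Levels were set against each other per length, as the mean log2 value minus log2 of the length in kilobases. In Control embryos Prdx1 was the highest at 15.47 ± 0.87 (SD, n = 10), beyond 1 SD above Sod1 (13.2 ± 0.70). Gpx4 (13.04), Txn1 (12.35), Prdx6 (12.33), Sod2 (11.96), Prdx2 (11.88), Prdx4 (11.72) and Prdx3 (11.53) followed Sod1, each within 1 SD of the next. Prdx5 was the lowest at 10.54 ± 0.89, beyond 1 SD below Prdx3. In Padi6-mutant embryos Prdx1 (15.39 ± 0.60, SD, n = 9) was still the highest, Sod1 (14.77), Txn1 (14.68) and Gpx4 (14.53) came next within 1 SD of each other, and Gpx4 lay beyond 1 SD above Prdx4 (12.52). Sod2 (12.44), Prdx5 (12.39), Prdx2 (12.23), Prdx6 (11.76) and Prdx3 (11.58) followed, each within 1 SD of the next. With its longest transcript Prdx1 lay at 14.08 in Control and 14.0 in Padi6-mutant embryos, where it was then the fourth. The place of Sod2 likewise rests on its annotated length.

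Some of these genes have near-identical copies or share exons with a neighbour, and the sources used here do not say how reads that fit several places, or their strand, were treated. Prdx1 has 3 copies with at least 85% identity over at least 300 bases. The processed pseudogenes Gm21399 (98.3% identical over 597 bases) and Gm7204 (97.5%) were measured at 7.25 ± 0.58 and 6.16 ± 0.93 in Padi6-mutant embryos. Their counts were on average 0.451% and 0.218% of those of Prdx1. The Sod1 copy Gm8566 (97.8% identical over 465 bases) stood at 7.22 ± 0.88 in Padi6-mutant and 5.99 ± 1.029 in Control embryos (1.23, limma adjusted p = 0.0542), on average 1.02% of Sod1. The coding gene Exo1, which matches Sod2 over 355 bases (85.4% identical), stood at 10.84 ± 0.31 in Padi6-mutant and 11.51 ± 0.41 in Control embryos (-0.67, limma adjusted p = 0.00750). Its counts were on average 10.5% of those of Sod2, from 4.25% to 27.6% over the libraries. Gpx4 has the copy Gpx4-ps2 (99.7% over 762 bases), Txn1 has Txn-ps1 (95.8% over 309 bases) and Prdx6 the related gene Prdx6b (90.1% over 1444 bases), and none of the 3 was among the genes measured. In GENCODE M21 the exons of Prdx5 share 409 bases with Trmt112 on the opposite strand, and those of Prdx2 share 177 bases with Rnaseh2a and 173 with Junb, so reads of these genes and of Prdx5 or Prdx2 may not be told apart.

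Other genes of redox defence were read from 7 lists, also chosen with earlier results of these data known, with 93 of 103 genes measured. Of these 93, 25 rose and 16 fell (median -0.21), against 14.6% and 12.0% of all genes. When Padi6-mutant 6, 8, 9 and 10, each with over 400 genes at 0, were left out, 20 rose and 7 fell, against 11.9% and 6.64% of all genes. With the length and GC trend removed, 17 rose and 17 fell, against 10.6% and 10.2%. The same shares of all genes are the background of each list described next, and no list was tested against another.

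Of 20 genes of the thioredoxin and glutaredoxin system, 7 rose and 4 fell (median -0.09), and with the trend removed 5 rose and 3 fell (median 0.16). Txndc17, a thioredoxin-like protein of the cytosol, rose by 1.38 (SE 0.29, limma adjusted p = 0.00108), Glrx5, which serves iron-sulfur cluster assembly in mitochondria, by 1.35 (SE 0.28, adjusted p = 0.000924), and Msrb1, a selenoprotein that repairs oxidized methionine, by 1.21 (SE 0.30, adjusted p = 0.00480). Without the length and GC trend Glrx5 stood at 1.65 (adjusted p = 0.000560), while the calls of Txndc17 (0.45, adjusted p = 0.0945) and Msrb1 (0.45, adjusted p = 0.234) ended. With the longest transcripts Msrb1 passed (0.81, adjusted p = 0.0433) and Txndc17 did not (0.31, adjusted p = 0.234). Direct partners of the 10 genes, here and in the lists that follow, are named for that role and were chosen after their values were seen. Txnrd1, the reductase that recharges Txn1, fell by 0.62 (adjusted p = 0.0343), a call that ended with the length and GC trend removed (-0.40, adjusted p = 0.0971) and without the 4 libraries (-0.66, adjusted p = 0.0988). Srxn1, which rescues overoxidized peroxiredoxins, did not pass (-0.37, adjusted p = 0.606).

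Of 17 measured genes of glutathione synthesis, recycling and transfer, 6 rose and 2 fell (median 0.32). With the trend removed 4 rose and 4 fell (median -0.012). Gpx1, the cytosolic glutathione peroxidase, rose by 1.28 (SE 0.22, limma adjusted p = 0.000168) and still stood at 0.89 (adjusted p = 0.000525) with the trend removed. Gsta4, a transferase for products of lipid peroxidation, rose by 1.32 (SE 0.26, adjusted p = 0.000600), a call that ended with the trend removed (0.51, adjusted p = 0.0723). Gsr, the reductase that regenerates glutathione with NADPH, fell by 1.16 (SE 0.24, adjusted p = 0.00123) with 9 of 9 mutant embryos under the Control median. It stood at -0.98 (adjusted p = 0.00295) with the trend removed, and its call ended with the detected-gene covariate (-0.74, adjusted p = 0.0720).

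Of 11 genes of NADPH supply, 0 rose and 7 fell (median -0.58). Me1, malic enzyme of the cytosol, fell by 1.36 (SE 0.19, limma adjusted p = 1.30e-05), and it stood at -1.26 (adjusted p = 7.49e-05) with the trend removed and at -1.45 (adjusted p = 0.000357) without the 4 libraries. Pgd of the pentose phosphate pathway fell by 1.27 (SE 0.28, adjusted p = 0.00194), and Nnt, the proton-driven transhydrogenase of mitochondria, fell by 1.80 (SE 0.498, adjusted p = 0.00993). For each, 9 of 9 mutant embryos were under the Control median. Nnt was at a low level, 6.25 ± 1.07 (SD) in Padi6-mutant and 8.05 ± 1.14 (SD) in Control embryos. The call of Nnt ended without the 4 libraries (-1.47, adjusted p = 0.0595), and those of Nnt (-1.44, adjusted p = 0.128) and Pgd (-0.90, adjusted p = 0.0763) ended with the detected-gene covariate. With the trend removed 4 of the 11 fell (median -0.35), and without the 4 libraries 3 did, with 0 higher in either.

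Of 12 measured genes of other superoxide, peroxide, quinone, haem and metal defence, 6 rose and 0 fell (median 0.67). With the trend removed 4 rose and 1 fell (median 0.13). Mt1, a metallothionein that binds zinc and copper, rose by 2.46 (SE 0.32, limma adjusted p = 4.64e-06). Blvrb (1.48, SE 0.26, adjusted p = 0.000181) and Blvra (1.25, SE 0.22, adjusted p = 0.000238), the biliverdin reductases, rose as well. The 3 stood at 1.30 (adjusted p = 0.00257), 1.03 (adjusted p = 0.00117) and 0.72 (adjusted p = 0.0216) with the trend removed, and Blvra at 0.59 (adjusted p = 0.0638) with the longest transcripts. Ccs, the chaperone that loads copper into Sod1, rose by 1.21 (adjusted p = 0.000468) and stood at 0.79 (adjusted p = 0.0165) with the trend removed. Catalase, Cat, did not pass (-0.49, adjusted p = 0.119).

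Of 17 selenoprotein and selenocysteine machinery genes, 5 rose and 0 fell (median -0.14), and with the trend removed 3 rose and 1 fell (median -0.0074). Selenok of the endoplasmic reticulum rose by 1.70 (SE 0.32, limma adjusted p = 0.000395), Selenoh by 1.64 (SE 0.29, adjusted p = 0.000218) and Selenow by 1.55 (SE 0.27, adjusted p = 0.000199). With the trend removed Selenok stood at 1.54 (adjusted p = 0.000573), Selenow at 0.66 (adjusted p = 0.0351; 0.60, adjusted p = 0.0548 with the longest transcripts), and the call of Selenoh ended (0.50, adjusted p = 0.0691), though it passed with the longest transcripts (0.54, adjusted p = 0.0490). Of the 9 measured NRF2 regulators, Rbx1, the RING subunit of cullin ubiquitin ligases, rose by 2.24 (SE 0.26, adjusted p = 1.54e-06) and Sqstm1, an autophagy receptor that binds KEAP1, fell by 1.12 (SE 0.33, adjusted p = 0.0146), while the other 7 did not pass (median of the list -0.29). With the trend removed 1 rose and 2 fell (median -0.17). The call of Sqstm1 ended without the 4 libraries (-1.16, adjusted p = 0.0567) and with the detected-gene covariate (-0.93, adjusted p = 0.140). Nfe2l2, which encodes NRF2 (-0.29, adjusted p = 0.330), and its repressor Keap1 (-0.46, adjusted p = 0.152) were among the 7. Of 7 lipid peroxide and iron genes around Gpx4, Acsl4 (-1.72, SE 0.44, adjusted p = 0.00543) and Lpcat3 (-1.16, SE 0.23, adjusted p = 0.000643), which place polyunsaturated fatty acids in membrane lipids, fell, and 0 rose (median of the list -0.32). The counts were the same with the trend removed (median -0.24). The call of Acsl4 ended with the detected-gene covariate (-1.58, adjusted p = 0.0602).

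**Figure D5:**
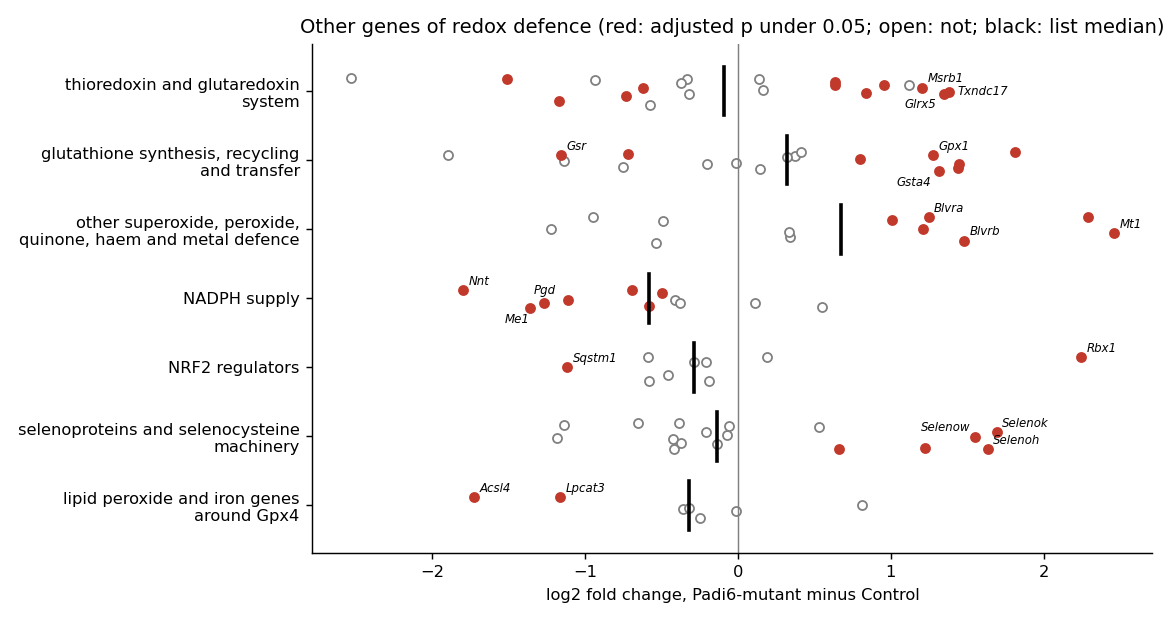
Each row is 1 list of redox genes and each point 1 gene; the horizontal axis is the log2 fold change of Padi6-mutant minus Control, red points passed an adjusted p under 0.05, open points did not, and the black bars are list medians. The NADPH row has 7 red points, all below 0, and the row of other superoxide, peroxide, quinone, haem and metal defence has 6, all above 0.

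The genes whose pattern over the 19 libraries was nearest to the mean pattern of the 10 genes were found by the root mean square difference of deviations from each gene's mean. They were Psmb7, a proteasome subunit (0.156), the spliceosome proteins Bcas2 (0.176) and U2af1 (0.202), Grpel1, a cochaperone of mitochondrial import (0.185), and the survivin gene Birc5 (0.194). Nearest to Txn1 was Micos10 of the mitochondrial inner membrane (0.148), to Gpx4 Chchd2 (0.179), to Prdx5 Chmp2a of the ESCRT machinery (0.251), to Sod1 Cib1 (0.270) and to Sod2 Rab5if (0.209). Nearest to Prdx2 was Clta, a clathrin light chain (0.208), to Prdx3 Sertad1 (0.294), to Prdx4 Rpain (0.301) and to Prdx6 Psmf1 (0.350). The gene nearest to Prdx1 was its own pseudogene Gm21399 (0.263).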

How the data were processed

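The submitters' processing notes name the tools Trim Galore 0.4.4 (trimming) and HISAT2 2.1.0 (alignment) beside build GRCm39 (mm39). The counting tool and annotation are not given in the sources used here. Per the labels' protocols, RNA was captured on oligo-dT beads, copied by template switching, amplified by PCR and made into Nextera XT libraries. The deposited table holds log2 values, each log2(scaled count + 1): taken back, values lay within 1.96e-07 of whole numbers, and the upper quartile is the same in 19 libraries. Each gene listed is above 0 in at least 9 libraries. The lowest of the 10 genes in any library (Prdx4, Padi6-mutant 8) rested on about 534 reads if the smallest step between values is 1 read. The counting error would be 4.33% were these reads independent, and amplification by PCR can make it larger. The scaling hides library totals, so depth is known only by these smallest steps. They ran from 1 to 3.84 in Padi6-mutant libraries (8 of 9 above 1) and from 1 to 1.61 in Control libraries (5 of 10). The values are whole numbers and 1 was the lowest step searched. Libraries at 1 may thus have been scaled down from more reads, and their depth is not known. A larger step goes with fewer reads behind the same scaled count. The part of this difference between the groups in the results was not tested.

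Groups were compared with limma 3.58.1 in R 4.3.3 (lmFit, eBayes with trend, two-sided) over all 14173 genes with Benjamini-Hochberg adjustment. The fit was also run on simulated data with independent noise for each gene. Those data lacked the length trend of the real libraries, so that run gives no error rate for the calls here. Python 3.11.15 did the permutations. Transcript lengths came by symbol from GENCODE M21 (13357 genes, 94.2%), the shortest principal transcript or else the longest coding one; GRCm38, on which that release rests, precedes GRCm39. The trend on length and GC content was removed by lowess with a span of 0.3. The 10 genes and the lists were chosen with earlier results of these data known. Named genes were the 10, up to 3 of each list with the smallest adjusted p, and the nearest genes; direct partners, chosen later, are said to be so.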

Additional observations from a re-analysis of the deposited data

Results flagged for a closer look

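In 1 of the 32 sets of values searched for a library far from the rest of its group (the 10 genes and 6 pairs in each of 2 groups), a library stood apart, where chance gives about 1.6. Prdx4 in Padi6-mutant 8 stood at 11.0, and the nearest other Padi6-mutant embryo at 12.28. The gap was 0.625 of the group's range, above the limit of 0.493 for 9 values. Without this library Prdx4 stood at 0.98 (limma adjusted p = 0.0102).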

How the results depend on the processing

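Txn1, Prdx5 and Gpx4 were called higher under every alternative run, and Sod1 under all but both trend removals (length and GC). Of the 10 genes, 5 were called higher; this was 3 with the length and GC trend removed, by either choice of transcript, and 4 to 6 with any 1 library left out. The 0 called lower became 1 with the trend removed (Prdx1) and 1 with library quality weights (Prdx6), and stayed at 0 with any 1 library left out. The log2 fold change of Prdx1 turned positive with library quality weights (0.11), without the 4 libraries with over 400 genes at 0 (0.040), and on leaving out Control 5, 7 or 9 or Padi6-mutant 9 (range -0.22 to 0.071). That of Prdx2 turned to -0.11 with the trend removed. That of Prdx3 turned under quantile normalization (-0.00028), with the same sum (-0.075), with quality weights (-0.056), with the detected-gene covariate (-0.048), with the trend removed (-0.24, or -0.36 with the longest transcripts), without the 4 libraries (-0.033), and without Control 8 or Padi6-mutant 6 or 8 (range -0.064 to 0.15). Prdx4 turned to -0.079 with the longest transcripts. Of the other redox genes, 25 rose and 16 fell; 16 rose with the trend of the longest transcripts removed, and 25 fell with quality weights (19% of all genes did), 3 with the covariate (3.52%) and 7 without the 4 libraries (6.64%). With 1 library left out, 22 to 26 rose and 12 to 18 fell. The share of all genes called was not counted with 1 library left out. Whether these counts, or those of the 10 genes, moved with that share cannot be told.

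Of the pairs, Sod2 minus Sod1 turned to 0.14 and 0.17 with the 2 trend removals. Prdx3 minus Prdx1 passed under quantile normalization (0.496) and with the trend removed (0.87), and turned to -0.18 with the longest transcripts and -0.073 without the 4 libraries. Prdx4 minus Prdx1 no longer passed with the longest transcripts (0.10). Prdx2 minus Prdx1 passed under quantile normalization (0.796), with the trend removed (0.99) and without Padi6-mutant 6 (range 0.34 to 0.55 with 1 library left out). Prdx6 minus Prdx1 turned to 0.62 with the trend removed. The cause of these changes was not tested.

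The groups share the numbers 2 to 10, but same-numbered libraries did not deviate together (correlations from -0.07 to 0.15, 1 of 9 above 0.1). Whether the numbers mark a shared litter or collection cannot be told from this, and the labels do not say. With the replicate block 10 of the other redox genes fell (7.06% of all genes did), and Prdx4 (0.72, adjusted p = 0.0837) and Msrb1 (1.07, adjusted p = 0.0510) did not pass. Prdx4 minus Prdx1 (0.93, exact permutation adjusted p = 0.0781) and Gpx4 minus Txn1 (-0.80, exact permutation adjusted p = 0.0586) did not pass with the block either.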
